A study of Mus musculus with 2 samples.

Results

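The miR-106b-25 and miR-106a-363 clusters are groups of microRNA (miRNA) genes that, with the better known miR-17-92 cluster, descend from a common ancestral cluster. They were taken here by gene symbol from count tables of mouse heart. The rule named 9 genes of the 2202 in the tables: Mir106b, Mir93 and Mir25 of the miR-106b-25 cluster, and Mir106a, Mir18b, Mir20b, Mir19b-2, Mir92-2 and Mir363 of the miR-106a-363 cluster. The tables come from 2 miRNA sequencing libraries of the hearts of male B6CASTF1/J mice aged 4 days, with no treatment named in the labels. B6CASTF1/J animals are hybrids with a C57BL/6J and a CAST/EiJ parent. Both libraries belong to a single group, so the series holds no contrast of conditions, and each animal numbered in the labels has 1 library. The labels number the animals separately but give both the same donor identifier, so the spread between the libraries may be technical.

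A miRNA is cut as a hairpin from a longer transcript, and 1 arm of the hairpin, the guide arm, is loaded into an Argonaute protein and pairs with messenger RNAs through its seed, bases 2 to 8. The miRNAs of these clusters fall into 4 seed families, called here miR-17, miR-18, miR-19 and miR-25/92. They are known for favouring proliferation, through targets such as the cell cycle inhibitor gene Cdkn1a and the pro-apoptotic gene Bcl2l11. The miR-106b-25 cluster lies within Mcm7, which encodes a subunit of the helicase that opens DNA for replication, and is transcribed with it. In the mouse heart, miR-25 is known to repress Atp2a2, the calcium pump gene of the sarcoplasmic reticulum.

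The guide arms of the miR-106b-25 cluster are shown because 2 members share a seed and the other carries a different one. Sequences are those of RefSeq on GRCm38.p6, which held all 9 members, written 5′ to 3′ with the seed in capitals.

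miR-106b-5p: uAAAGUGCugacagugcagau
miR-93-5p: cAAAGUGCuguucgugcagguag
miR-25-3p: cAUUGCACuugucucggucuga

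The 6 guide arms of the X-linked cluster hold all 4 seeds and are followed by 3 arms of the miR-17-92 cluster, to show how little separates some reads.

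miR-106a-5p: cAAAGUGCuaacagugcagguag
miR-18b-5p: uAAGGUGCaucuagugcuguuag
miR-20b-5p: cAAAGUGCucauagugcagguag
miR-19b-3p (Mir19b-2): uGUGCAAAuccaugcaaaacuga
miR-92a-3p (Mir92-2): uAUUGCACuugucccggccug
miR-363-3p: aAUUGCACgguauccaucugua
miR-17-5p: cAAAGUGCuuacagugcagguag
miR-20a-5p: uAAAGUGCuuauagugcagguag
miR-18a-5p: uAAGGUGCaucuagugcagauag

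Counted from the 5′ end, miR-106a-5p differs from miR-17-5p by the single substitution U10A. The difference between miR-17-5p and miR-20b-5p is U10C and C12U, and between miR-20a-5p and miR-20b-5p it is U1C and U10C. The arms miR-18a-5p and miR-18b-5p differ by A18U and A20U. In contrast, miR-17-5p and miR-93-5p differ at 4 positions, U10G, A11U, C12U and A13C. Within the miR-25/92 family, miR-25-3p differs from miR-92a-3p at 3 positions, U1C, C14U and C18U, and miR-363-3p at 11. The arms miR-19b-3p and miR-92a-3p are each encoded at 2 loci with the same sequence: Mir19b-1 and Mir92-1 of the miR-17-92 cluster carry the same mature RNA as Mir19b-2 and Mir92-2.

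Reads counted here are those on the strand of the gene that the authors' pipeline gave to a single gene, 4196577 in replicate 1 and 3801738 in replicate 2. A further 38.1% and 42.3% of the reads in the tables mapped to several places and are in no gene's count. A gene's count joins both arms of its hairpin, so the levels below are of genes and not of the printed arms alone. Levels are in CPM, a gene's reads scaled to the same total of counted reads in each library, on which scale 1 read was worth 0.238 CPM in replicate 1 and 0.263 CPM in replicate 2. Errors after ± are SDs over the 2 libraries (n = 2), and intervals are at 95% and cover counting error only. They take reads as independent molecules, which amplified reads are not, so they may be too narrow. The heart muscle miRNAs Mir208a, Mir208b and Mir499, which mark the tissue, summed to 13054 and 8858 CPM.

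Nearly all counted reads of the 9 genes came from the cluster in Mcm7. Mir106b, Mir93 and Mir25 together held 0.808% ± 0.005 of the counts, and the 6 X-linked genes 0.0047% ± 0.0006. Per library the miR-106b-25 share was 0.812% (Wilson interval 0.803 to 0.820) and 0.805% (0.796 to 0.814), from 34062 and 30595 reads. The X-linked share was 0.00515% (0.00450 to 0.00588) and 0.00423% (0.00363 to 0.00494), from 216 and 161 reads. The miR-106b-25 total was 158 times the X-linked total in replicate 1, with an exact interval of 138 to 181, and 190 times that total in replicate 2, with 163 to 223. On the log2 scale the ratio was 7.44 ± 0.19. Reads of Mir92-2 and Mir19b-2 that also match their copies on chromosome 14 are not in the X-linked total. Counting them there would lower the ratio. Misread reads of similar miRNAs from outside the cluster, if counted at the X-linked genes, would have lowered it already. Whether such reads were counted was not tested, so the ratio is not a firm limit in either direction. With 2 libraries no sign-flip p can fall below 0.5, so these ratios within a library carry no test.

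**Figure D1:**
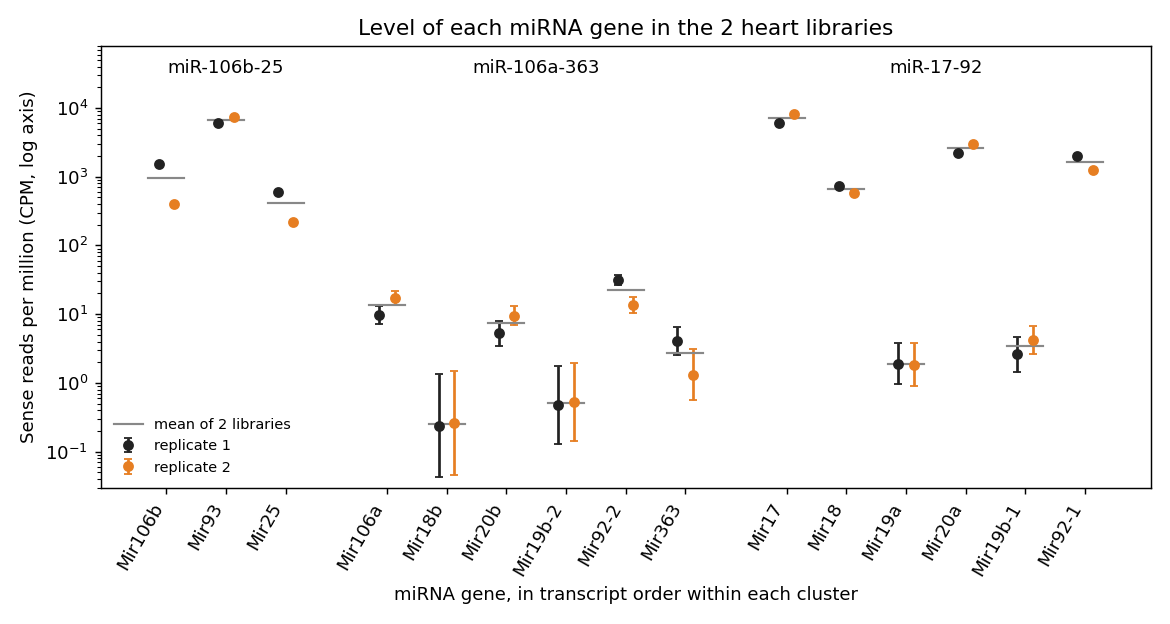
Level of the 9 genes and of the 6 genes of the miR-17-92 cluster in CPM on a log axis, by cluster and in transcript order; points are the 2 libraries with 95% Wilson intervals and grey lines their mean. Mir93 stands with Mir17 at the top, the 6 X-linked genes lie at or below 31.7 CPM, and Mir106b and Mir25 are the 2 members of the Mcm7 cluster whose points separate most.

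Mir93 was the leading gene of the Mcm7 cluster, and indeed of all 9. Its hairpin (mm10 chromosome 5, 138165523 to 138165610, minus strand) is intronic, in intron 13 of a protein-coding Mcm7 transcript. The hairpin also overlaps an exon of 1 retained-intron transcript. Mir93 had 25121 reads in replicate 1 and 28235 in replicate 2, or 5986 and 7427 CPM, with a mean of 6706 ± 1019 CPM. By mean CPM it ranked 31 of the 2202 genes. It was 1.24-fold (1.22 to 1.26) more abundant in replicate 2.

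Mir106b, the hairpin nearest the 5′ end of the cluster, came next in order of level but differed widely between the libraries. It lies 126 bases before Mir93 (138165737 to 138165818), in the same intron and in no exon of Mcm7. Mir106b had 6443 reads in replicate 1 and 1516 in replicate 2, or 1535 and 399 CPM. Its mean of 967 ± 804 CPM placed it at rank 76, from rank 63 in replicate 1 and rank 98 in replicate 2. It was 3.85-fold (3.64 to 4.07) more abundant in replicate 1.

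Mir25, the last hairpin of the cluster, is the member with the miR-25/92 seed. It lies 118 bases beyond Mir93 (138165321 to 138165404), in the same intron, and also overlaps an exon of 1 retained-intron transcript. Mir25 had 2498 reads in replicate 1 and 844 in replicate 2, or 595 and 222 CPM, with a mean of 409 ± 264 CPM and rank 108. It was 2.68-fold (2.48 to 2.90) more abundant in replicate 1.

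The order Mir93, Mir106b, Mir25 was the same in both libraries, while the distances were not. Mir93 exceeded Mir106b by 3.90-fold (exact interval 3.79 to 4.01) in replicate 1 and by 18.6-fold (17.7 to 19.6) in replicate 2. The ratio of Mir93 to Mir25 was 10.1 (9.65 to 10.5) and 33.5 (31.2 to 35.9). Mir106b exceeded Mir25 by 2.58-fold (2.46 to 2.70) in replicate 1 and by less in replicate 2, with an interval of 1.65 to 1.96, and the log2 ratio was 1.11 ± 0.37. For each of these ratios the intervals of the libraries did not overlap, but the intervals cover counting error only. On counting error alone, 56.9% of the 441 genes tested below were also called different between the libraries. Ratios between genes of the same library do not depend on how the libraries are scaled.

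As a share of the cluster's reads, Mir93 made up 73.8% in replicate 1, with a Wilson interval of 73.3 to 74.2, and 92.3% in replicate 2. Mir106b made up 18.9% (18.5 to 19.3) and 4.96% (4.72 to 5.20), and Mir25 7.33% (7.06 to 7.62) and 2.76% (2.58 to 2.95). Scaled by library totals, the cluster total hid this shift: its fold between the libraries was 0.992 (0.976 to 1.007). The other scalings used below move that ratio up by 0.24 and 0.31 on the log2 scale.

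**Figure D2:**
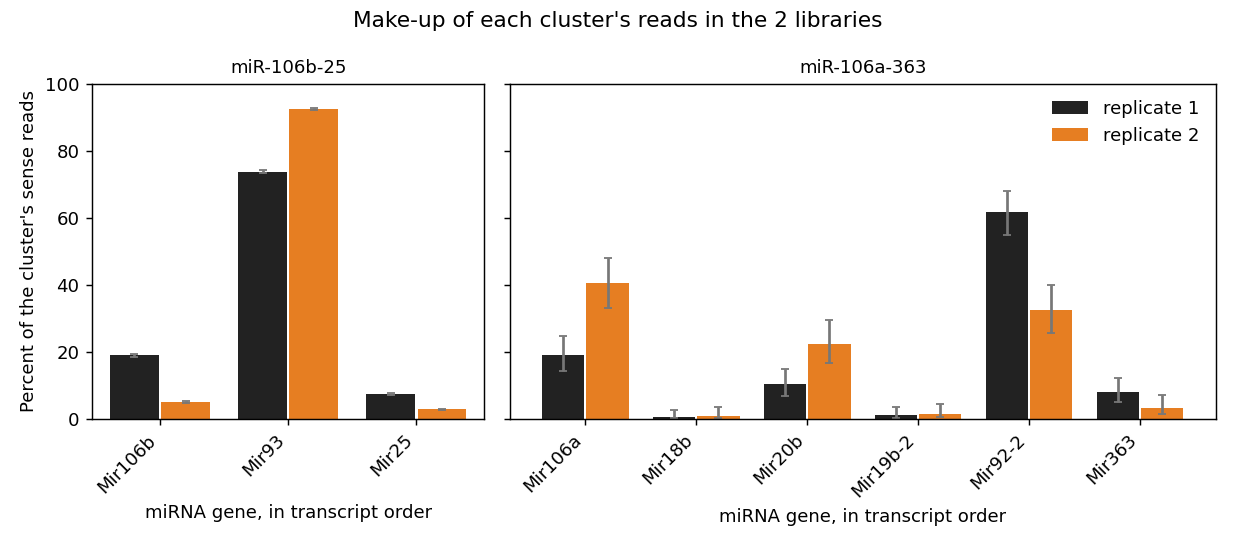
Percent of each cluster's sense reads held by each gene, in transcript order, with 95% Wilson intervals; black bars are replicate 1 and orange bars replicate 2. Mir93 takes 73.8% and 92.3% of the Mcm7 cluster, and in the X-linked cluster Mir92-2 holds 61.6% in replicate 1 and 32.3% in replicate 2, and Mir106a 19.0% and 40.4%.

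The X-linked cluster spans 875 bases of the minus strand (mm10 chromosome X, 52741693 to 52742567). Its hairpin nearest the 5′ end, Mir106a, overlaps the last 5 bases of the long non-coding gene Kis2 in the annotation, and the other 5 hairpins lie outside other annotated genes of their strand. By the naming rule for mouse crosses the mother's strain comes first, which would give these males the X chromosome of the reference strain. The labels do not state the direction of the cross. Reads were few: all 9 members had at least 1 read in each library, but of the X-linked genes only Mir106a, Mir20b and Mir92-2 had 10 or more in each.

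Mir92-2 (52741838 to 52741928), a miR-25/92 seed member, had 133 reads in replicate 1 and 52 in replicate 2, or 31.7 and 13.7 CPM. Its mean was 22.7 ± 12.7 CPM, at rank 248 of 2202. Its mature RNA is the same as that of Mir92-1, and the identical run between both hairpins is 22 bases, the mature sequence and 1 base before it. A read of the mature RNA alone therefore matches both loci, and the counts of Mir92-2 and Mir92-1 leave out such reads. Past the 3′ end of the mature sequence the hairpins differ from the first base. Whether misread or lengthened reads of Mir92-1 were counted at Mir92-2 was not tested. Mir92-1 had 8372 and 4702 reads, so the count of Mir92-2 was 1.59% and 1.11% of that of Mir92-1.

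Mir106a (52742503 to 52742567), a miR-17 seed member, had 41 reads in replicate 1 and 65 in replicate 2, or 9.77 and 17.1 CPM, with a mean of 13.4 ± 5.18 CPM. These are 0.161% and 0.209% of the reads of Mir17, from which its guide arm differs by the 1 base shown above. Mir20b (52742113 to 52742192), with the same seed, had 22 and 36 reads, or 5.24 and 9.47 CPM, with a mean of 7.36 ± 2.99 CPM. These are 0.235% and 0.319% of the reads of Mir20a. The number of mismatches allowed in alignment is not given in the sources used here. Whether misread bases of miR-17 and miR-20a added to these small counts was not tested.

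Mir363 (52741693 to 52741767), a miR-25/92 seed member at the 3′ end of the cluster, had 17 and 5 reads, or 4.05 and 1.32 CPM. Its hairpin shares no 20-base window with another annotated miRNA hairpin. Mir19b-2 (52741983 to 52742066), of the miR-19 family, had 2 reads in each library. Its mature RNA and 2 bases before it, 25 bases in all, are identical in Mir19b-1, so this count too leaves out reads that match both loci. Mir18b (52742331 to 52742413), of the miR-18 family, had 1 read in each library, and its hairpin shares no window with another. Both lie below 3 reads, which correspond to 0.715 and 0.789 CPM.

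The order of counted reads within the X-linked cluster was only in part the same in both libraries. Mir92-2 exceeded Mir106a by 3.24-fold (exact interval 2.27 to 4.72) in replicate 1, and in replicate 2 the ratio was 0.80 (0.545 to 1.17). The count of Mir92-2 leaves out reads that also match Mir92-1, so these ratios do not give the order of the RNAs themselves in either library. Mir106a was above Mir20b in both libraries, 1.86-fold (1.08 to 3.29) and 1.81-fold (1.18 to 2.79), and their log2 ratio was 0.88 ± 0.03. The ratio of Mir20b to Mir363 was 1.29 (0.656 to 2.60) in replicate 1, an interval that includes 1, and 7.20 (2.82 to 23.5) in replicate 2. Mir92-2 exceeded Mir363 by 7.82-fold (4.71 to 13.8) and 10.4-fold (4.18 to 33.4). At 1 and 2 reads, Mir18b and Mir19b-2 could not be told apart.

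Mir106a, Mir20b, Mir363 and Mir92-2 had far fewer counted reads than their paralogs in the Mcm7 cluster. Mir106b exceeded Mir106a by 157-fold (116 to 219) in replicate 1 and 23.3-fold (18.2 to 30.4) in replicate 2. Mir93 exceeded Mir20b by 1142-fold (754 to 1822) and 784-fold (566 to 1120). Mir25 exceeded Mir363 by 147-fold (91.6 to 253) and 169-fold (72.0 to 521), and the counted reads of Mir92-2 by 18.8-fold (15.8 to 22.5) and 16.2-fold (12.3 to 21.9). The count of Mir92-2 leaves out reads that also match Mir92-1, so the folds over it are of counted reads only. Mir19b-1 had 11 and 16 reads beside the 2 and 2 of Mir19b-2, in each case without reads that match both loci. Mir18 had 3061 and 2233 beside the 1 and 1 of Mir18b. The miR-17-92 cluster on chromosome 14 stood close to the Mcm7 cluster in total but not gene by gene. Its Mir19a had 1.91 and 1.84 CPM and its Mir19b-1 2.62 and 4.21 CPM in replicates 1 and 2, far below Mir25. The total of miR-17-92 was 1.36-fold (1.34 to 1.38) and 1.61-fold (1.59 to 1.64) that of miR-106b-25. Mir17 and Mir93 were nearly level, with a ratio of 1.02 (0.998 to 1.033) in replicate 1 and 1.10 (1.09 to 1.12) in replicate 2.

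By seed, the 4 members of the miR-17 family provided 47.6% (47.2 to 48.0, Wilson) of that family's reads in the first library and 41.3% (40.9 to 41.7) in the other, with Mir17 and Mir20a as the rest. This family summed to 15841 and 19017 CPM over 7 genes, of which Mir6383 had 0 reads. The 3 members with the miR-25/92 seed provided 23.3% (22.5 to 24.0) and 15.1% (14.2 to 16.0) of the counted reads of that family, 2713 and 1572 CPM. Reads of miR-92a that match both its loci are in neither number, and the members' share with those reads included is not known. The counts also join both arms of a hairpin, while the seed is that of the guide arm. The family total is thus not a firm limit in either direction. Mir92-1 led that family, Mir32 had 224 and 273 reads, Mir92b had 141 and 102, and Mir367 had 0. In the miR-18 family Mir18b provided 1 of 3062 and 1 of 2234 reads. The miR-19 family had 21 and 25 reads over its 3 genes. Mir19a, whose mature RNA is at a single locus and whose hairpin shares no 20-base window, had 8 and 7 of these.

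The libraries were then compared gene by gene, by Fisher's exact test of a gene's reads against the rest of the library, two-sided, adjusted by Benjamini-Hochberg over the 441 genes with 10 or more reads in all. This test compares 2 libraries, not conditions, and takes in counting error only. At an adjusted p under 0.05 it called 251 genes, 56.9% of those tested, with 90 (20.4%) higher and 161 (36.5%) lower in replicate 2. With TMM scaling (trimmed mean of M-values) the split was 124 higher and 116 lower, and with DESeq2 scaling 136 and 104. These scalings moved raw log2 ratios up by 0.24 and 0.31, and scaled by totals the tested genes had a median raw log2 ratio of -0.31. Log2 ratios below are of CPM + 1, replicate 2 over replicate 1, on which scale that median was -0.26 and low genes moved by less with scaling.

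Of the 9 members 7 were tested, and 5 of these 7 were called, beside 56.9% of all tested genes. Mir93 and Mir106a were higher in replicate 2, with log2 ratios of 0.31 (adjusted p = 1.11e-136, Fisher's exact test) and 0.75 (adjusted p = 0.0094). Mir106b, Mir25 and Mir92-2 were lower. Mir106b had a log2 ratio of -1.94, with an adjusted p below the smallest number the software can hold. Mir25 had -1.42 (adjusted p = 3.22e-153, Fisher's exact test) and Mir92-2 had -1.16 (adjusted p = 2.38e-07). Mir20b at 0.75 (adjusted p = 0.059, Fisher's exact test) and Mir363 at -1.13 (adjusted p = 0.053) missed the threshold, and Mir18b and Mir19b-2 were too low to test. The same 5 calls were made with both other scalings, which also called Mir20b, at log2 ratios of 0.96 and 1.02.

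The spread between the libraries, estimated by edgeR as a biological coefficient of variation, was 0.381. It was estimated with TMM scaling over the 344 genes with 10 or more reads in each library, while the exact test scaled by totals. With this spread edgeR's exact test made 3 calls among the 441 genes (0.68%) after adjustment, with 0 of the 7 tested members among them. At an unadjusted p under 0.05 it passed 27 genes (6.12%), of which 1 was a member, Mir106b (p = 0.018, adjusted p = 0.43, edgeR's exact test). For Mir25 the unadjusted p was 0.079 and for Mir93 0.69. This spread comes from the same libraries it is used to compare, and both tests compare libraries and not conditions.

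**Figure D3:**
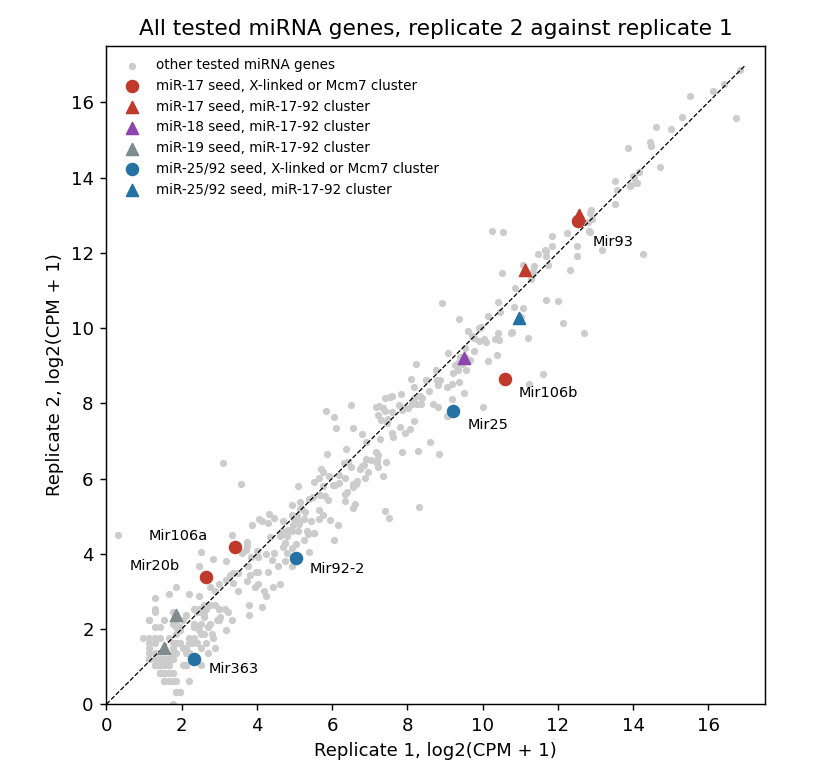
Level in replicate 2 against replicate 1 for the 441 tested miRNA genes, as log2(CPM + 1); coloured circles are tested genes of the Mcm7 and X-linked clusters, triangles genes of the miR-17-92 cluster, colours the seed family, and the dashed line equality. Mir93 lies just above the line, and Mir106b and Mir25 lie below it, at log2 ratios of -1.94 and -1.42.

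Within the Mcm7 cluster the raw log2 ratios thus spanned 2.26 units, from Mir106b to Mir93, although the hairpins lie within 498 bases of 1 intron. Clusters of miRNA genes on 1 strand, with gaps of at most 10 kb and at least 3 genes of mean count 100 or more, numbered 11. Their spans ran from 0.50 to 3.65 with a median of 1.26, and 3 of the 11, all with more genes, were wider than that of miR-106b-25. Of the 5 clusters with 3 such genes miR-106b-25 had the widest. The span of miR-17-92 was 1.12.

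The calls by Fisher's exact test are given next by seed family, beside 20.4% of all tested genes called higher and 36.5% called lower. Of the miR-17 family, Mir93, Mir106a, Mir17 and Mir20a were higher in replicate 2 and Mir20b had the same sign, while Mir106b was lower. Of the miR-25/92 family, Mir25, Mir92-2 and Mir92-1 (log2 ratio -0.69) were lower and Mir32 (0.42) was higher. Mir363 and Mir92b (-0.31) had the sign of Mir25 without passing. The counts of Mir92-2 and Mir92-1 leave out reads that match both loci, so their calls do not give the change of the shared mature RNA. Of the miR-18 and miR-19 families, Mir18 (-0.31) was lower, and Mir19a and Mir19b-1 were not called. This grouping was looked at after the values were known and was not tested, and edgeR's exact test called 0 of the 7 tested members.

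**Figure D4:**
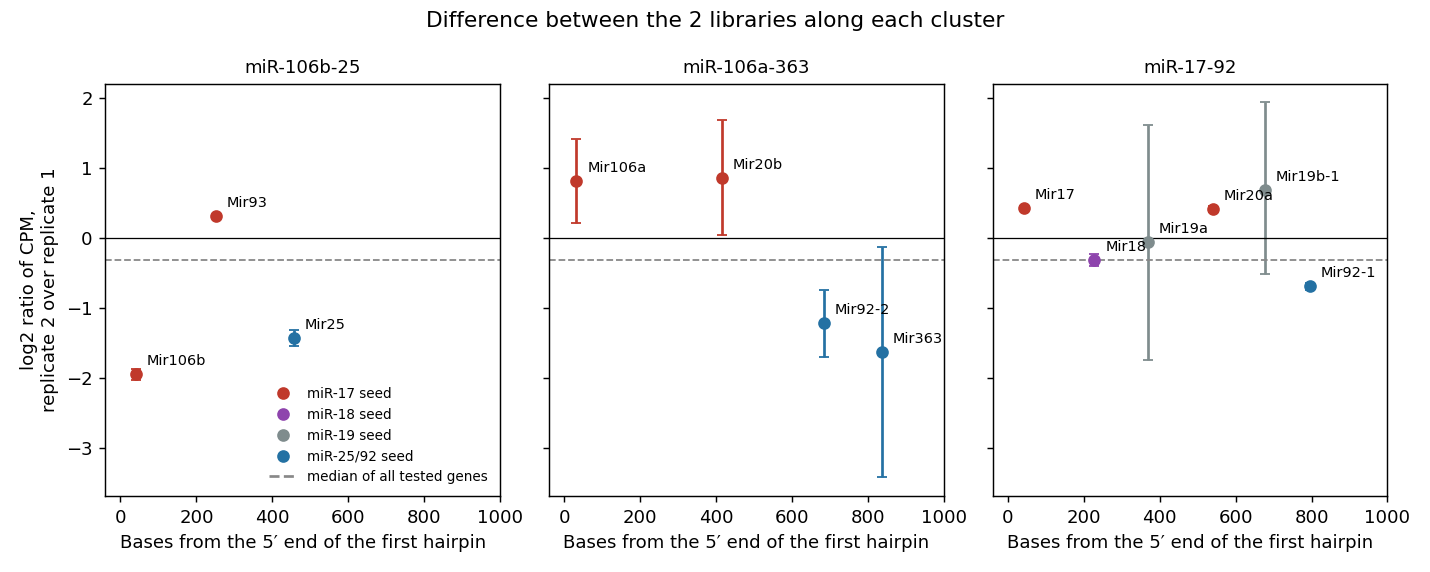
Log2 ratio of CPM, replicate 2 over replicate 1, against position in bases from the 5′ end of the first hairpin, 1 panel per cluster, for genes with 10 or more reads in all; bars are 95% exact intervals, colours the seed family and the dashed line the median of all tested genes. In the X-linked cluster Mir106a and Mir20b lie above 0 and Mir92-2 and Mir363 below, and in the Mcm7 cluster Mir93 alone lies above 0.

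Markers of cell types also differed between the libraries. Calls here are by Fisher's exact test, which called 20.4% of all tested genes higher and 36.5% lower in replicate 2. The endothelial miRNA Mir126a had 109199 and 49330 CPM in replicates 1 and 2, a log2 ratio of -1.15, and was called lower. Mir126b had 3 and 0 reads and was not tested. The smooth muscle miRNAs Mir143 and Mir145a summed to 48576 and 79468 CPM, and both were called higher in replicate 2. The 3 heart muscle miRNAs were all called lower, with log2 ratios of -0.73 for Mir208a, -0.80 for Mir208b and -0.32 for Mir499. The median over all tested genes was -0.26. The red blood cell miRNAs in the tables, Mir451a, Mir144 and Mir486, summed to 493 and 400 CPM. Mir144 (log2 ratio -0.87) and Mir486 (-0.47) were called lower, and Mir451a, at 234 CPM in each library, was not called. The white blood cell miRNAs Mir142, Mir150, Mir155 and Mir223 summed to 1478 and 1542 CPM, with 3 called higher and 1 lower. The liver miRNA Mir122 had 309 and 105 CPM and was called lower. The pluripotent cell miRNAs Mir302a to Mir302d summed to 39.1 and 43.1 CPM with none called. In bulk tissue fewer cells of a type and less RNA per cell cannot be told apart, and the part of cell make-up in the differences of Mir106b and Mir25 was not tested.

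By level in both libraries, the genes nearest to each member were found by the Euclidean distance over the 2 log2(CPM + 1) values. Mir191 (distance 0.27) and Mir130a (0.37) were nearest to Mir93. Mir29a (0.20) and Mir152 (0.22) were nearest to Mir25, with log2 ratios of -1.40 each. Mir106b stood farther from its nearest genes, Mir1839 (0.65) and Mir301 (0.67). Mir194-2 (0.21) and Mir760 (0.28) were nearest to Mir92-2, Mir302a (0.24) and Mir33 (0.30) to Mir106a, and Mir6240 (0.30) and Mir375 (0.34) to Mir20b.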

How the data were processed

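Small RNA of mouse heart was sequenced as 2 libraries, and the labels give a size range below 30. Whether these came from 2 animals is not settled by the labels. The authors deposited 1 table of raw read counts per miRNA gene for each library, and the description files name mm10 with GENCODE M21. Aligner, counter and settings: not given in the sources used here. The deposited tables hold counts without regard to strand, on the gene's strand and on the opposite strand; the strand of each column was read from the values. Sense counts were used, and lines that name no gene were left out of totals and tests: in replicates 1 and 2, unmapped reads (14.1% and 13.1%), reads mapped to several places (38.1% and 42.3%) and reads in no annotated feature (4.01% and 3.70%).

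All 2202 gene IDs matched GENCODE M21. Members, lists and named genes were chosen with earlier results of these data known. Named are the 9 members, the miR-17-92 genes, the 2 genes nearest in level to each member with 10 or more counts in each library, and the marker genes; Mir32, Mir92b, Mir367 and Mir6383 were added as holders of the same seeds. Shares have Wilson intervals and ratios between genes exact binomial ones. Counts were compared between genes without division by length, since mature miRNAs are of similar length; division by hairpin length was an alternative. Fisher's exact test (SciPy 1.17.1) was run on all genes with 10 or more counts over both libraries. It was tried on simulated counts that held counting error only, so that trial does not cover the wider spread between these libraries. With 1 library on each side the quasi-likelihood fit cannot estimate a spread, so edgeR 4.0.16 served for TMM scaling and its exact test, and DESeq2 1.42.0 for size factors. Windows of 20 bases were compared among annotated hairpins on either strand; no genome sequence was used. R 4.3.3 and Python 3.11.15 were used.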

Additional observations from a re-analysis of the deposited data

How the results depend on the processing

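The 5 members called by Fisher's exact test were called alike with TMM or DESeq2 scaling, with no count minimum, with 10 or more counts asked of each library, and with counts taken without regard to strand, which also called Mir363. With edgeR's exact test 0 members were higher and 0 lower, and over all genes 2 were higher and 1 lower in place of 90 and 161; DESeq2 scaling gave 136 and 104. All 15 genes of the 3 clusters had equal sense and unstranded counts, so that column acted on them only through its smaller total: the miR-106b-25 share was 1.05% and the miR-106a-363 share 0.0061%. With all reads in the tables as the denominator these shares were 0.342% and 0.0020%. Per base of hairpin the log2 ratio of Mir20b to Mir106a was -1.17, against -0.88. With a single library no comparison of libraries can be made. Leaving out a replicate gave a log2 ratio of Mir93 to Mir25 of 3.33 to 5.06, of Mir25 to Mir106b of -1.37 to -0.84, of Mir20b to Mir106a of -0.90 to -0.85, of miR-106b-25 to miR-106a-363 of 7.30 to 7.57, and of miR-17-92 to miR-106b-25 of 0.44 to 0.69. Of the 9 members, 2 share a window of 20 bases with another hairpin. Depth limits the X-linked genes most: 3 of the 6 had fewer than 10 reads in 1 or both libraries.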

Other observations

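The guide arms of Mir93, Mir106a and Mir20b end in the 7 bases CAGGUAG, as do those of Mir17 and Mir20a. This ending was picked after the values were seen. Of the 1738 mature miRNAs of RefSeq, 6 (0.345%) end so, the other being the 3p arm of Mir7239, with 1 and 0 reads. Of the 5 cluster genes, Mir93, Mir106a, Mir17 and Mir20a were called higher in replicate 2 by Fisher's exact test, and Mir20b had a log2 ratio of 0.75 without passing; of all tested genes 20.4% were called higher. With edgeR's exact test 0 of the 7 tested members were called. The guide arm of Mir106b, the miR-17 seed member that was lower, ends otherwise and is 21 bases long, against 23 bases for these 5. That of Mir18 also ends otherwise but has 23 bases, and Mir18 was called lower at a log2 ratio of -0.31.

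The guide arms of Mir25 and Mir363 have 22 bases and that of Mir92-2 has 21. Over the tested genes whose annotated mature RNAs are all of 1 length, the median log2 ratio of replicate 2 to replicate 1 was -0.39 at 21 bases (33 genes), -0.20 at 22 bases (135 genes) and -0.25 at 23 bases (22 genes). Mir106b, Mir93, Mir20b and Mir92-2, whose arms differ in length, are in none of these groups. These lengths too were looked at after the members' values were seen, and no test was made.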
